A study of Salmo salar with 16 samples.

Results

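The hematopoietic transcription factor genes described here are the genes of the Atlantic salmon (Salmo salar) spleen whose symbol belongs to a fixed set of factor families, gata, tal1, lmo2, cebp, ikzf, ebf, tcf, lef1, bcl6, bcl11, prdm1, klf, myb, id, nfe2, bach, maf, nkx2, batf, tbx21, eomes, foxp and zbtb among them. A member also had to reach 0.5 CPM (counts scaled to the total of the fish, in the usual CPM unit) in at least 4 of 16 fish. Of 79140 features in the count tables, 64 carried a matching symbol and 59 passed, against 33989 features of the whole series that passed the same minimum. The 5 that did not pass were nkx2-8 and nkx2-1 with 0 counts in every fish, runx2 and prdm14 with at most 1 count, and nkx2-2 with at most 9 counts. At a minimum of 1 CPM the number was also 59. The pattern reads symbols only, and 59.6% of the features carry a LOC identifier in place of a symbol. No feature under the symbols gata2, runx1, runx3, spi1, spib, ikzf3, pax5, tcf7, bcl11b, id1, id3 or tlx1 was therefore a member. It also took in mybpc1, a myosin-binding protein gene, zbtb8os, a neighbour of zbtb8 genes, and cebpz, none of which encodes a blood cell factor in mouse or human.

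Spleens were taken after 37 days from small fish in fresh water on 4 diets, with 4 fish per diet. ACJ held 40% soybean meal and 5% of the yeast Cyberlindnera jadinii after autolysis, in which the cells are broken down by their own enzymes. ICJ held the same amounts with the yeast inactivated by heat. SBM held 40% soybean meal with no yeast, and FM, the control, was based on fishmeal. By the paper's formulation the diets also differed in fishmeal, wheat gluten, potato starch, cellulose and added amino acids. The part of these in a diet difference cannot be told apart from that of soybean meal or yeast. Fish came from duplicated tanks and the labels do not give the tank of a fish, so a difference between tanks and one between diets cannot be told apart. The p-values weigh a diet difference against the spread between fish within diets, estimated over all 4 diets together. Fish that shared a tank were treated as independent, which can make the p-values too small. Total counts per fish were between 5013312 and 9075622, at which 3 counts correspond to between 0.331 and 0.598 CPM, a floor that covers counting error only. Levels are given as CPM scaled by edgeR's TMM method, so levels of 1 gene can be compared between fish. Levels of different genes are compared only per kilobase of exon.

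A transcription factor binds DNA near its target genes and raises or lowers their transcription. A small number of such proteins sets which blood cell a progenitor becomes. In mouse, human and zebrafish Gata1, Tal1 and Lmo2 act in 1 complex in red cell precursors, and C/EBP proteins drive granulocyte and macrophage genes. Ebf1 and the E proteins Tcf3, Tcf4 and Tcf12 drive B cell genes, and Tbx21, Eomes, Gata3 and Foxp3 set T and NK cell types. The teleost spleen holds many red cells, thrombocytes and lymphocytes within a stroma whose formation depends on factors such as Nkx2-3 and Tcf21 in mouse. Red cells of fish keep their nucleus and go on transcribing, so red cell factors can be measured in circulating cells as well as in precursors. Defining genes of these tissues were present in every fish here, among them hemoglobin, cd79b, cd3e, nkx23 and tcf21_1. In whole spleen, fewer cells of a type and less RNA per cell cannot be told apart.

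Per kilobase, the 59 genes covered more than 2 orders of magnitude in mean level. The highest was cebpb, a factor of granulocytes, macrophages and the acute response, at 75.6 CPM per kilobase (mean of 16 fish), ahead of id2, an inhibitor of E proteins, at 55.3 and tcf21_1 at 55.1. lmo2 followed at 34.9, with cebpa at 34.8, klf2 at 34.7, klf2_1 at 33.2 and tcf3 at 30.8. The lineages were thus represented side by side at the top of the range: a myeloid, a stromal, a red cell, a lymphoid and a B cell factor. The lowest were mybpc1 at 0.401, gata4 at 0.675, zbtb43 at 0.722, lef1 at 0.887 and myb at 0.953 CPM per kilobase. myb, a factor of stem and progenitor cells, had between 6 and 17 counts in a fish, and gata4 was the only member with a count of 0 in some fish. The median over the 59 genes was 5.54 CPM per kilobase, 13 genes were above 20 and 14 were below 2.

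**Figure D1:**
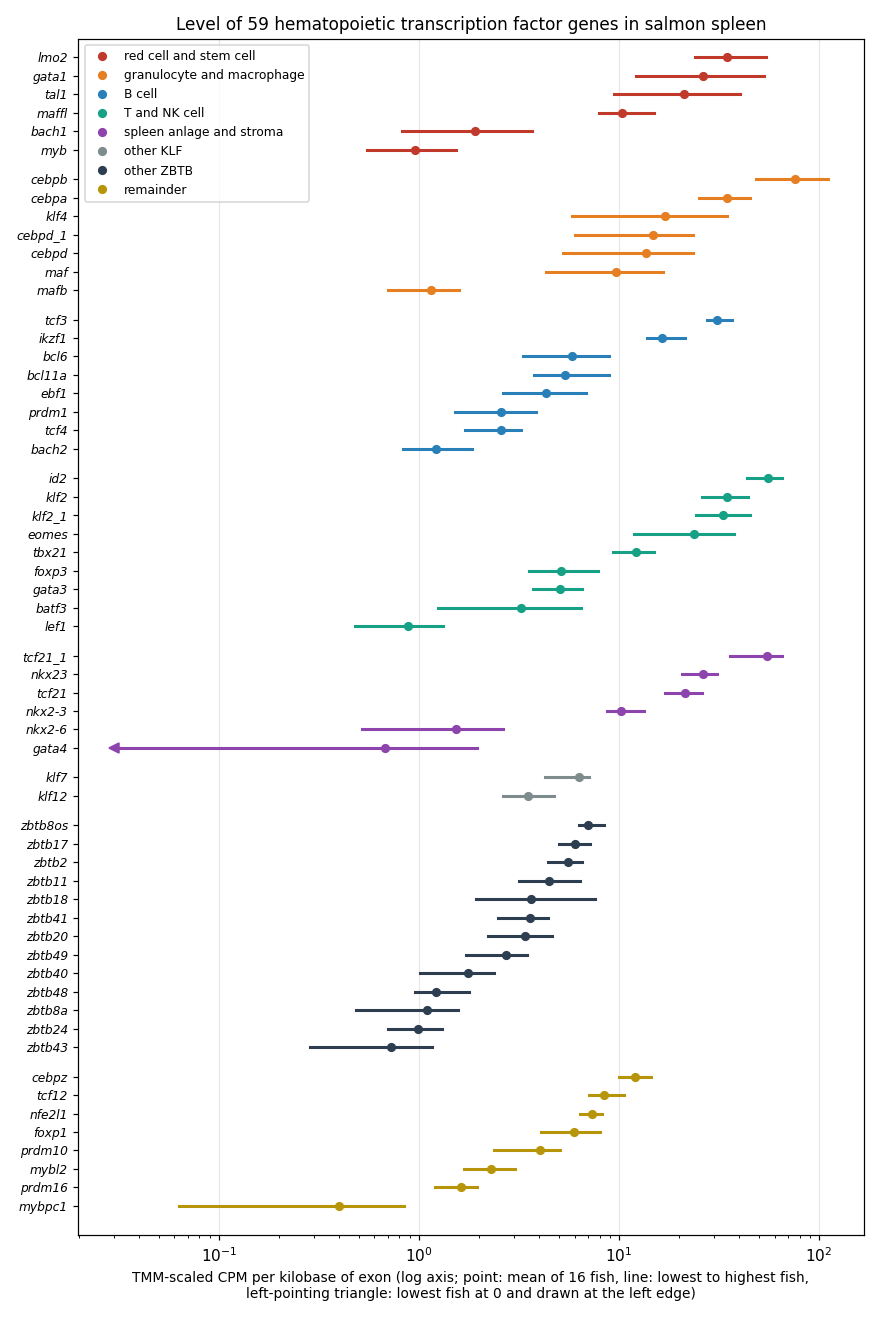
Level of each of the 59 genes as TMM-scaled CPM per kilobase of exon on a log axis, grouped by role; points are means of 16 fish and lines run between the lowest and the highest fish. cebpb, id2 and tcf21_1 lie at the top at 75.6, 55.3 and 55.1, and gata4 has the widest range because some fish had no count.

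Fish of 1 diet differed by little for some factors and by much for others. The within-diet SD of log2 CPM was 0.08 for tcf3 and for nfe2l1, a stress response factor of the NF-E2 family, and 0.26 for the median gene. It was 1.21 for gata4, 0.63 for mybpc1, 0.62 for maf, 0.61 for klf4 and 0.60 for batf3, so a difference between diets of a given size is harder to see in these. tcf3 ranged only between 27.7 and 36.8 CPM per kilobase over all 16 fish.

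A set of 4 comparisons put soybean meal diets against FM: each of ACJ, ICJ and SBM alone, and the mean of all 12 fish on soybean meal. These share the 4 FM fish. A gene was called at an adjusted p below 0.05 in edgeR's quasi-likelihood test over 28929 genes (Benjamini-Hochberg). Against the mean of SBM, ICJ and ACJ, 1 of the 59 genes was called, klf2_1, where 0.992% of all genes were called. At an unadjusted p below 0.05 there were 17 members, 4 with higher and 13 with lower means on soybean meal, or 28.8% of the members where 16.5% of all genes had such a p. DESeq2 called 7 of the 59, klf2_1, gata1, tal1, zbtb18, bcl11a, tcf3 and nkx23, where it called 3.0% of all genes. The median log2 fold change was -0.02 over the members and -0.01 over all genes.

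None of the 59 genes was called in any single diet against FM. In ACJ against FM edgeR called 0 members and 0.235% of all genes, and DESeq2 called 3 members (nkx23, tcf3 and klf2_1) and 1.60% of all genes. In ICJ against FM edgeR called 0 members and 0.0104% of all genes, and DESeq2 called 1 member (klf2_1) and 0.280% of all genes. In SBM against FM edgeR called 0 members and 0.432% of all genes, and DESeq2 called 4 members (gata1, tal1, zbtb18 and klf2_1) and 2.49% of all genes. An unadjusted p below 0.05 was found for 14 members in ACJ against FM, 3 higher and 11 lower, or 23.7% where all genes gave 14.9%. It was found for 12 members in ICJ against FM, 5 higher and 7 lower, or 20.3% where all genes gave 9.26%, and for 12 members in SBM against FM, 3 higher and 9 lower, or 20.3% where all genes gave 14.7%.

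Counts of genes whose 4 fish did not overlap with the 4 FM fish were as follows. In ACJ, 8 members lay below all FM fish (klf2_1, klf2, gata1, tal1, ebf1, tcf3, zbtb24 and zbtb43), or 13.6% of the members where 3.56% of all genes did so, and 0 lay above them, where 3.49% of all genes did. In ICJ, 2 lay below (klf2_1 and zbtb24), with 1.64% of all genes, and 3 lay above (nkx2-3, nkx23 and mybl2), with 2.72% of all genes. In SBM, 5 lay below (klf2_1, gata1, tal1, klf4 and zbtb18), with 4.15% of all genes, and 2 lay above (nkx23 and cebpa), with 4.03% of all genes. Over all 12 fish on soybean meal, only klf2_1 lay below all FM fish, where 0.277% of all genes did, and 0 members lay above, where 0.474% of all genes did. klf2_1 was thus the single factor that separated every fish on soybean meal from every fish on fishmeal.

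**Figure D2:**
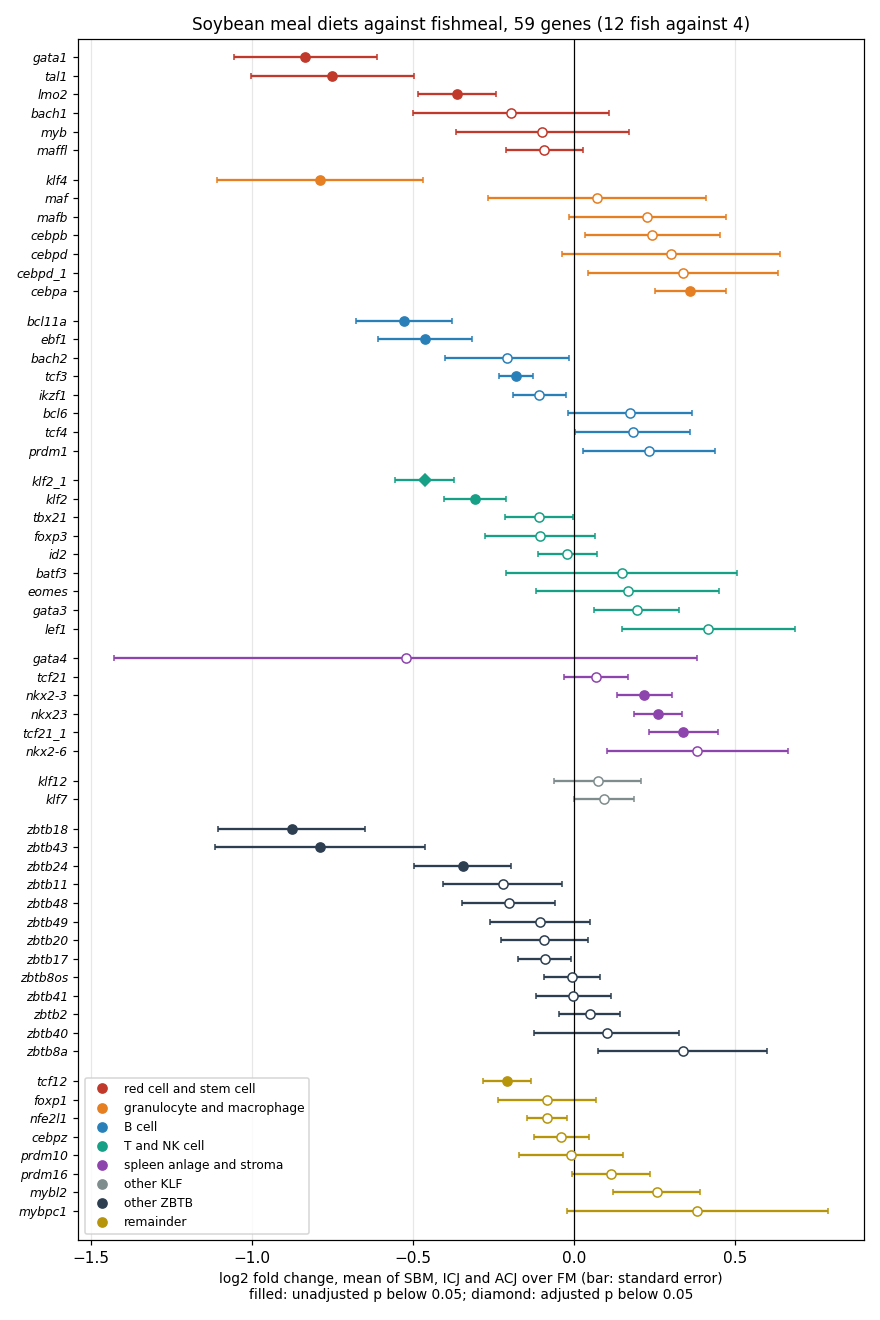
Log2 fold change of the mean of SBM, ICJ and ACJ over FM for the 59 genes, by role, with the standard error as a bar; filled symbols have an unadjusted p below 0.05 and the diamond an adjusted p below 0.05. The red cell factors lie left of 0 and most stromal factors right of 0, and klf2_1, at -0.46, is the only diamond.

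klf2_1, on chromosome 16 of ICSASG_v2 (40199350 to 40201979), is a copy of the gene for KLF2, which in mouse keeps lymphocytes and the lining of blood vessels in a resting state. It had 66.7, 69.6, 58.0 and 66.2 CPM in ACJ fish, 69.7, 53.8, 63.3 and 80.7 in ICJ fish, 80.6, 57.0, 73.2 and 69.6 in SBM fish and 85.3, 92.0, 101 and 93.5 in FM fish. The highest fish on soybean meal, an ICJ fish, stayed below the lowest FM fish. It fell on the soybean meal diets, with -0.46 (SE 0.09, adjusted p = 0.0277) for the mean of SBM, ICJ and ACJ over FM, where SE is the standard error of the log2 fold change. Single diets did not pass the test, with -0.51 in ACJ over FM (adjusted p = 0.0586), -0.47 in ICJ over FM (adjusted p = 0.21) and -0.41 in SBM over FM (adjusted p = 0.111). The call against the mean rests on all FM fish but 1: without FM replicate 2, 3 or 4 the adjusted p was 0.0829, 0.137 and 0.0772, with log2 fold changes of -0.47, -0.42 and -0.46.

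A further 2 copies of the gene are in the tables. klf2 on chromosome 3 (41496688 to 41498999) had 62.3, 69.6, 65.6 and 61.7 CPM in ACJ fish, 53.2, 67.9, 77.8 and 80.3 in ICJ fish, 62.1, 59.8, 82.8 and 62.1 in SBM fish and 75.2, 85.8, 80.6 and 90.4 in FM fish, and the mean over FM gave -0.31 (SE 0.10, adjusted p = 0.12). All 4 ACJ fish lay below the FM fish, while the highest ICJ and SBM fish overlapped with them. LOC106613686 on chromosome 10, which RefSeq names klf2a, is no member. It had 166 ± 9.56 CPM in ACJ fish, 181 ± 22.3 in ICJ fish, 171 ± 17.5 in SBM fish and 204 ± 18.8 in FM fish. In the mean over FM it gave -0.25 (SE 0.07, adjusted p = 0.11). All 3 copies had lower means on soybean meal, and klf2_1 alone passed the test. Fragments that match several places were not counted, so each copy is measured on its unique parts only.

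Among the 6 red cell and stem cell factors, 3 had an unadjusted p below 0.05 and a lower mean on soybean meal, and 0 were called. gata1, on chromosome 12 (70807501 to 70827417), is the master factor of red cells and thrombocytes. It had 52.1, 50.9, 50.8 and 51.5 CPM in ACJ fish, 43.1, 25.7, 63.9 and 74.2 in ICJ fish, 38.5, 38.2, 30.9 and 43.0 in SBM fish and 58.7, 60.5, 112 and 100.2 in FM fish. ACJ fish were nearly alike, ICJ fish were widely spread and included the lowest of all 16 fish, SBM fish were low, and the FM fish formed a lower and a higher pair. All SBM and all ACJ fish lay below the lowest FM fish. On the log2 scale the difference was -0.69 in ACJ over FM (SE 0.28, adjusted p = 0.275), -0.68 in ICJ over FM (SE 0.28, adjusted p = 0.491) and -1.14 in SBM over FM (SE 0.29, adjusted p = 0.102). In the mean of the 3 diets over FM it was -0.84 (SE 0.22, adjusted p = 0.0897).

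tal1 on chromosome 10 (11906791 to 11913153) encodes the partner of Gata1 that is needed for all blood formation in mouse and zebrafish. Its levels were 55.4, 49.0, 45.7 and 47.7 CPM in ACJ fish, 41.6, 24.996, 77.7 and 72.8 in ICJ fish, 50.3, 38.2, 26.1 and 43.2 in SBM fish and 58.2, 60.8, 92.9 and 107 in FM fish. As for gata1, ICJ replicate 2 was the lowest of all fish and FM replicates 3 and 4 were the highest. SBM over FM gave -1.01 (SE 0.33, adjusted p = 0.171) and the mean over FM -0.75 (SE 0.25, adjusted p = 0.166). lmo2 on chromosome 10 (109901012 to 109903704), the bridge between Tal1 and Gata1, differed by less. It had 61.7 ± 1.45 CPM in ACJ fish, 60.7 ± 13.2 in ICJ fish, 63.7 ± 4.76 in SBM fish and 79.9 ± 18.4 in FM fish (SD, n = 4 each), and -0.36 (SE 0.12, adjusted p = 0.143) on the log2 scale in the mean over FM. For lmo2, SBM and FM fish overlapped, as they did for the remaining 3. maffl, a small Maf gene, had 23.5 ± 2.66 CPM in SBM fish and 26.9 ± 2.70 in FM fish. bach1, a repressor that heme releases from DNA in mammals, had 2.01 ± 0.214 in SBM fish and 2.11 ± 1.11 in FM fish, and myb had 1.89 ± 0.262 and 1.95 ± 0.799, at counts of at most 26 and 17 in a fish. The log2 fold changes of bach1 and myb in the mean over FM, -0.20 and -0.10, changed sign without 1 FM fish.

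**Figure D3:**
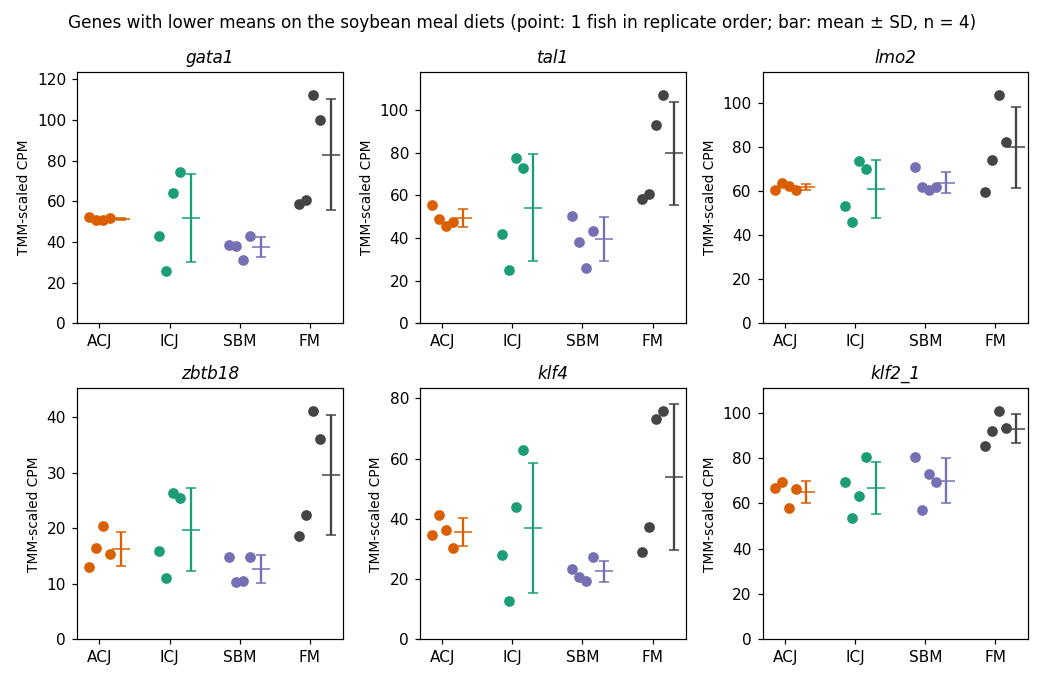
TMM-scaled CPM of gata1, tal1, lmo2, zbtb18, klf4 and klf2_1 in each of 16 fish by diet (ACJ, ICJ, SBM, FM), with mean and SD of 4 fish. All 4 SBM fish lie below all FM fish for gata1, tal1, zbtb18, klf4 and klf2_1, and only klf2_1 has all 12 fish on soybean meal below FM.

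zbtb18 and klf4, placed in other groups by name, shared with gata1 that all SBM fish lay below all FM fish and that FM replicates 3 and 4 were the highest of all fish. The order of the other fish differed between the genes. zbtb18 on chromosome 28 (20419118 to 20428281), a zinc finger repressor known from brain and muscle in mouse, had 13.0, 16.5, 20.4 and 15.3 CPM in ACJ fish, 15.9, 11.1, 26.4 and 25.5 in ICJ fish, 14.9, 10.4, 10.4 and 14.9 in SBM fish and 18.6, 22.4, 41.2 and 36.2 in FM fish. Its log2 fold change of SBM over FM, -1.21 (SE 0.29, adjusted p = 0.0912), had the lowest p of the 59 genes in that comparison, and the mean over FM gave -0.88 (SE 0.23, adjusted p = 0.0804). klf4 on chromosome 3 (23029838 to 23032334), a monocyte factor in mouse, had 34.6, 41.5, 36.4 and 30.4 CPM in ACJ fish, 28.1, 12.7, 43.8 and 63.0 in ICJ fish, 23.3, 20.9, 19.2 and 27.3 in SBM fish and 28.9, 37.4, 73.2 and 75.9 in FM fish, with -1.24 (SE 0.41, adjusted p = 0.186) for SBM over FM. As for gata1 and zbtb18, the highest ICJ fish exceeded the lower pair of FM fish. For klf4, 1 FM fish also lay below all ACJ fish.

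Summed hemoglobin transcripts were set beside these 4 genes fish by fish, without a test. Most of the hemoglobin genes carry LOC identifiers and were found through names in a list that the study drew from these fish. The direction of their sum between diets is therefore not independent evidence. The sum over 17 hemoglobin genes was 34344, 37914, 35953 and 38582 CPM in ACJ fish, 31068, 13994, 43851 and 61009 in ICJ fish, 25760, 23215, 14476 and 25508 in SBM fish and 34088, 38133, 56072 and 69926 in FM fish. The fish lowest in gata1, tal1 and klf4, ICJ replicate 2, was also the lowest in hemoglobin. ICJ replicate 4 exceeded FM replicate 3 in hemoglobin and had less of all 4 genes, which is a comparison of 1 pair of fish only. As CPM of the factor per 1000 CPM of hemoglobin, gata1 had 1.402 ± 0.0841 CPM in ACJ fish, 1.47 ± 0.261 in ICJ fish, 1.74 ± 0.276 in SBM fish and 1.69 ± 0.243 in FM fish (SD, n = 4 each). zbtb18 had 0.445 ± 0.0855 in ACJ fish, 0.581 ± 0.160 in ICJ fish, 0.584 ± 0.111 in SBM fish and 0.596 ± 0.0967 in FM fish. klf4 had 0.976 ± 0.131 in ACJ fish, 0.962 ± 0.0641 in ICJ fish, 1.05 ± 0.202 in SBM fish and 1.05 ± 0.193 in FM fish. tal1 had 1.35 ± 0.175 in ACJ fish, 1.52 ± 0.302 in ICJ fish, 1.77 ± 0.137 in SBM fish and 1.62 ± 0.0759 in FM fish. For all of these SBM and FM fish overlapped. ACJ fish had lower means than FM fish for each of these genes, also with overlap. The hemoglobin sum averaged 22240 CPM in SBM fish and 49555 CPM in FM fish. Dividing by it raises the SBM values relative to the FM values for any gene, so these ratios are not independent evidence either. For lmo2 and klf2_1, both lower in mean in SBM fish by CPM, the level per hemoglobin was higher in mean in SBM fish than in FM fish. lmo2 had 3.001 ± 0.788 in SBM fish and 1.68 ± 0.345 in FM fish, with no overlap, and klf2_1 had 3.34 ± 1.18 in SBM fish and 2.01 ± 0.548 in FM fish, with overlap. The part of the share of red cells in the diet differences of gata1, tal1, zbtb18 and klf4 was not tested.

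**Figure D4:**
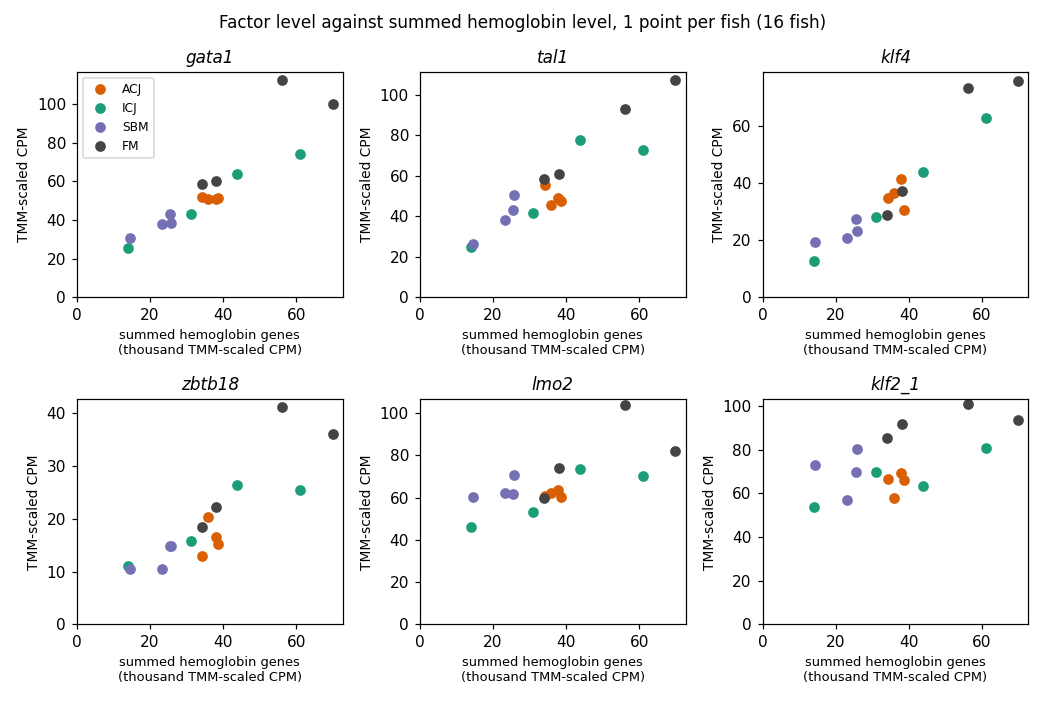
TMM-scaled CPM of gata1, tal1, klf4, zbtb18, lmo2 and klf2_1 (vertical axes) against the sum of 17 hemoglobin genes (horizontal axes), 1 point per fish, coloured by diet. gata1, tal1, klf4 and zbtb18 are highest in 2 FM fish, at 56072 and 69926 CPM of hemoglobin, and lower in an ICJ fish at 61009 CPM. For klf2_1 all 4 FM fish lie above the 12 others.

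Most other genes of the red cell programme had lower means on soybean meal. Of 21 red cell genes chosen by symbol, 19 were tested. They covered heme synthesis, iron uptake, membrane skeleton and transport, hemoglobin, the receptor gene epor, and the regulators gfi1b and zfpm1. The list was chosen with earlier results of these data known, so its direction is not independent evidence. In the mean over FM 17 of the 19 had lower and 2 higher means. At an unadjusted p below 0.05 there were 14 lower and 0 higher, where 16.5% of all genes had such a p. None was called, the lowest adjusted p was 0.0763, and the median log2 fold change was -0.74, against -0.01 over all genes. That lowest adjusted p belonged to hba, a hemoglobin gene with a wide spread in FM fish. hba had 1.66 ± 1.02 CPM in ACJ fish, 2.66 ± 2.03 in ICJ fish, 0.898 ± 0.307 in SBM fish and 17.2 ± 29.0 in FM fish. The 2 with higher means were gfi1b on chromosome 3, a repressor of the red cell and platelet lineages, and LOC106566514, ank1b, a membrane skeleton gene. gfi1b had 51.3 ± 22.7 CPM in ACJ fish, 52.3 ± 8.70 in ICJ fish, 61.7 ± 15.8 in SBM fish and 49.0 ± 12.7 in FM fish, with 0.16 (SE 0.25, adjusted p = 0.81) in the mean over FM, and ank1b had 0.76 (SE 0.43, adjusted p = 0.405). alas2, the first enzyme of heme synthesis in red cells, had 2420.0 ± 165 CPM in ACJ fish, 2705 ± 1420.2 in ICJ fish, 1834 ± 479 in SBM fish and 3825 ± 1113 in FM fish. zfpm1, the cofactor of Gata1, had -0.53 (SE 0.15, adjusted p = 0.0943) in the mean over FM.

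Thrombocyte markers had lower means as well. Both genes of the list were tested, and both had lower means in ACJ, ICJ and SBM fish than in FM fish, with 2 at an unadjusted p below 0.05 in the mean over FM and 0 called. LOC106600877, itga2b, an integrin chain of thrombocytes, had 274 ± 44.9 CPM in ACJ fish, 234 ± 73.5 in ICJ fish, 206 ± 33.7 in SBM fish and 336 ± 66.7 in FM fish and -0.51 (SE 0.17, adjusted p = 0.171) in the mean over FM. LOC106571903, gp9, a surface glycoprotein of thrombocytes, had 11.7 ± 1.51 CPM in ACJ fish, 12.1 ± 4.24 in ICJ fish, 8.47 ± 2.38 in SBM fish and 16.1 ± 4.20 in FM fish and -0.59 (SE 0.20, adjusted p = 0.146). The sum of both was between 245.3 and 327 CPM in ACJ fish, 152 and 313 in ICJ fish, 166 and 247 in SBM fish and 273 and 443 in FM fish. The part of the share of thrombocytes in the levels of gata1 and tal1 was not tested.

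Further red cell factors stand under LOC identifiers, named in a list that the study drew from these fish, so their direction is not independent evidence. Krueppel-like factor 1 (LOC106589620, chromosome 2), the main activator of globin genes in mouse, had 26.3 ± 3.53 CPM in ACJ fish, 34.4 ± 22.8 in ICJ fish, 22.1 ± 8.59 in SBM fish and 63.9 ± 35.2 in FM fish and gave -1.22 (SE 0.39, adjusted p = 0.148) in the mean over FM. A GATA-binding factor 2-like gene (LOC106582882, chromosome 22) had -0.75 (SE 0.26, adjusted p = 0.175), and 2 copies of Gfi-1b-like had -0.93 (SE 0.27, adjusted p = 0.111) (LOC106565457) and -1.24 (SE 0.34, adjusted p = 0.0921) (LOC106563235). NF-E2, the globin and platelet activator, had -0.61 (SE 0.16, adjusted p = 0.0807) (LOC106567066) and -0.68 (SE 0.23, adjusted p = 0.161) (LOC106572584). None of these passed the test, and gfi1b itself, above, had a higher mean.

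Among the 7 granulocyte and macrophage factors, 6 had higher and 1, klf4, had lower means on soybean meal. An unadjusted p below 0.05 in the mean over FM was found for 1 of the 6, cebpa, and in the other direction for klf4. klf4 had the larger difference, -0.79 on the log2 scale, and neither gene was called. cebpa, on chromosome 26 (44885073 to 44887227), is the factor that commits progenitors to the granulocyte line in mouse. It had 81.3, 93.9, 77.8 and 69.4 CPM in ACJ fish, 78.7, 88.1, 54.3 and 71.9 in ICJ fish, 76.4, 86.8, 97.8 and 76.4 in SBM fish and 72.1, 59.6, 54.0 and 61.0 in FM fish. All SBM fish lay above all FM fish, and 2 ICJ fish and 1 ACJ fish were within the FM range. The difference was 0.45 (SE 0.13, adjusted p = 0.131) on the log2 scale for SBM over FM and 0.36 (SE 0.11, adjusted p = 0.119) for the mean over FM.

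cebpb on chromosome 13 (40482788 to 40484397) had 102, 93.2, 159 and 172 CPM in ACJ fish, 101, 152, 78.2 and 95.8 in ICJ fish, 178, 114, 148 and 128 in SBM fish and 139, 93.1, 83.8 and 109 in FM fish, with 0.24 (SE 0.21, adjusted p = 0.62) for the mean over FM, and all 4 diets overlapped. The tables hold 2 copies of cebpd, an acute response factor. cebpd on chromosome 3 had 19.2, 19.7, 21.9 and 12.3 CPM in ACJ fish, 20.4, 31.5, 12.7 and 11.5 in ICJ fish, 25.2, 29.3, 37.6 and 36.5 in SBM fish and 35.2, 8.45, 12.7 and 17.0 in FM fish. cebpd_1 on chromosome 14 had 21.3, 23.3, 19.4 and 17.2 in ACJ fish, 22.9, 34.3, 14.8 and 12.8 in ICJ fish, 18.3, 26.2, 35.0 and 34.4 in SBM fish and 29.1, 9.03, 17.1 and 18.2 in FM fish. In both copies ICJ replicate 2 was the highest ICJ fish and FM replicate 1 the highest FM fish. All ACJ fish lay below all SBM fish for cebpd, with -0.80 (SE 0.40, adjusted p = 0.736) for ACJ over SBM. mafb, a macrophage factor, and maf ranged between 2.67 and 6.04 CPM and between 20.2 and 77.8 CPM with overlap between all diets. Of 10 other myeloid genes, 8 were tested, and 0 were called. In the mean over FM 6 had higher and 2 lower means, with 2 higher and 0 lower at an unadjusted p below 0.05. In SBM over FM 5 had higher and 3 lower means, with 0 higher and 1 lower at such a p. csf3r, the receptor of the granulocyte growth factor, had 216 ± 24.4 CPM in ACJ fish, 237 ± 22.0 in ICJ fish, 207 ± 22.1 in SBM fish and 189.8 ± 35.4 in FM fish.

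Among the 8 B cell factors, 5 had lower and 3 higher means on soybean meal, and 3 of the lower ones, bcl11a, ebf1 and tcf3, had an unadjusted p below 0.05. bcl11a on chromosome 18 (16650149 to 16700037), needed for early B cells in mouse and a repressor of fetal globin in human, had 30.5, 24.6, 27.4 and 33.0 CPM in ACJ fish, 27.6, 25.3, 41.3 and 34.2 in ICJ fish, 37.2, 23.2, 27.1 and 28.5 in SBM fish and 30.0, 41.6, 54.9 and 46.5 in FM fish. In the mean over FM it was -0.53 (SE 0.15, adjusted p = 0.0935) on the log2 scale, with 1 FM fish within the range of the other diets. The gene overlaps LOC106576983 on the same strand, and fragments over both were not counted. ebf1 on chromosome 13 (50659415 to 50799184), which opens the B cell programme, had 10.6, 8.41, 9.96 and 10.0 in ACJ fish, 11.6, 7.12, 12.2 and 12.9 in ICJ fish, 13.6, 9.66, 10.3 and 12.1 in SBM fish and 11.6, 18.6, 15.8 and 12.8 in FM fish. On the log2 scale it was -0.60 (SE 0.19, adjusted p = 0.146) for ACJ over FM, where no fish overlapped, and -0.46 (SE 0.15, adjusted p = 0.123) for the mean over FM.

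tcf3 on chromosome 14 (38439110 to 38482182), the E protein partner of Ebf1, had the smallest difference and the smallest spread of these, with 169, 164, 159.9 and 167 CPM in ACJ fish, 173, 159, 189 and 171 in ICJ fish, 185, 171, 171 and 175 in SBM fish and 181, 211, 196 and 188 in FM fish. Differences were -0.23 (SE 0.07, adjusted p = 0.116) for ACJ over FM and -0.18 (SE 0.05, adjusted p = 0.0941) for the mean over FM. ikzf1 had 44.7 ± 4.84 CPM in ACJ fish, 46.5 ± 2.45 in ICJ fish, 43.7 ± 1.87 in SBM fish and 48.4 ± 7.68 in FM fish, and bach2 lay between 9.002 and 19.9 CPM over all fish. The 3 B cell factors with higher means, prdm1, tcf4 and bcl6, had log2 fold changes of 0.23, 0.18 and 0.17 in the mean over FM. None of them passed the test, and bach2 had -0.21. prdm1, which turns B cells into plasma cells, had 10.5, 13.1, 16.8 and 16.8 in ACJ fish, 8.97, 14.9, 8.24 and 7.66 in ICJ fish, 9.24, 17.4, 12.2 and 10.5 in SBM fish and 12.9, 10.2, 6.86 and 11.003 in FM fish, with 0.53 (SE 0.24, adjusted p = 0.871) for ACJ over ICJ. bcl6, the germinal centre repressor of mammals, had 21.2 ± 4.84 CPM in ACJ fish, 16.4 ± 5.67 in ICJ fish, 15.1 ± 3.03 in SBM fish and 15.4 ± 2.60 in FM fish.

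Other B cell genes had lower means in the same comparison: 4 of 6 were tested and all 4 were lower in the mean over FM, 3 of them at an unadjusted p below 0.05, and 0 were called. cd79b, a chain of the B cell receptor complex, had 121 ± 7.86 CPM in ACJ fish, 145 ± 15.6 in ICJ fish, 137 ± 7.91 in SBM fish and 169 ± 25.9 in FM fish and a difference of -0.33 (SE 0.08, adjusted p = 0.0523) on the log2 scale. The summed level of the 6 B cell genes was between 346 and 412 CPM in ACJ fish, 399.6 and 479 in ICJ fish, 403 and 446 in SBM fish and 470.4 and 607 in FM fish. Whether this marks fewer B cells was not tested.

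**Figure D5:**
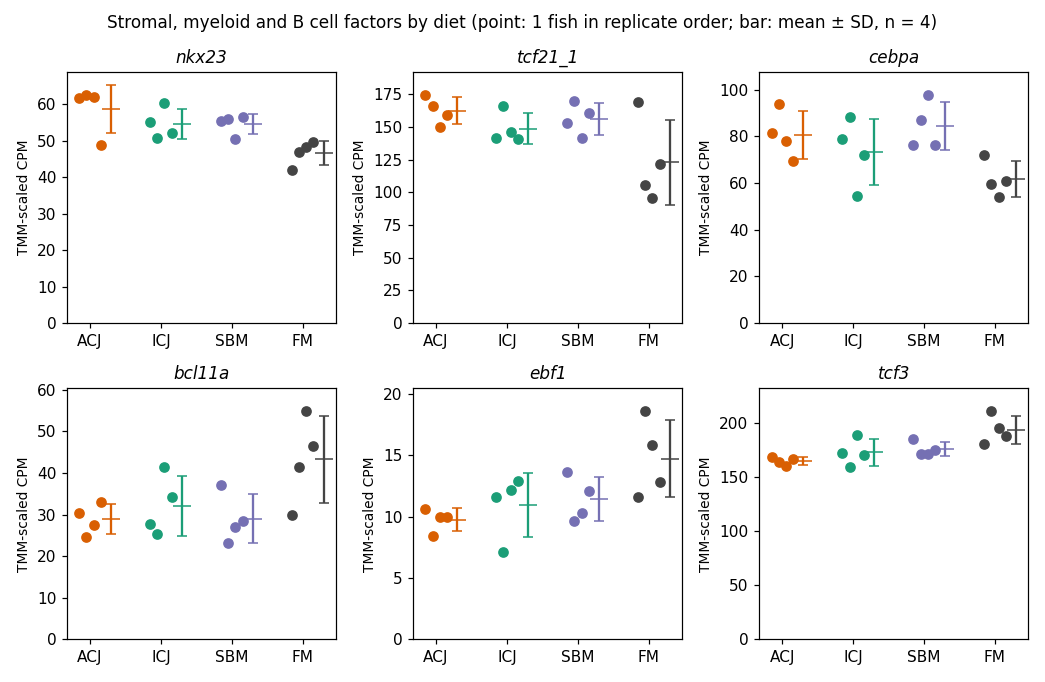
TMM-scaled CPM of nkx23, tcf21_1, cebpa, bcl11a, ebf1 and tcf3 in each of 16 fish by diet (ACJ, ICJ, SBM, FM), with mean and SD of 4 fish. The means of the first 3 are higher and those of the last 3 lower in each soybean meal diet than in FM, where nkx23 averaged 46.7 and tcf3 194 CPM.

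Of the 9 T and NK cell factors, only the 2 klf2 copies had an unadjusted p below 0.05 in the mean over FM. tbx21, the factor of type 1 helper T cells, had 53.6 ± 6.73 CPM in ACJ fish, 61.0 ± 11.5 in ICJ fish, 57.7 ± 5.84 in SBM fish and 61.8 ± 8.00 in FM fish. eomes, a factor of NK and memory T cells, had 63.1 ± 7.74 in ACJ fish, 70.3 ± 19.2 in ICJ fish, 75.5 ± 28.9 in SBM fish and 61.9 ± 27.8 in FM fish, with a spread in SBM and FM larger than any difference of means. The diets overlapped in both genes. foxp3, the factor of regulatory T cells, had 9.36 ± 1.92 CPM in ACJ fish, 9.62 ± 1.43 in ICJ fish, 10.2 ± 2.20 in SBM fish and 10.5 ± 3.21 in FM fish. gata3, the factor of type 2 helper T cells, had 17.3 ± 2.93 CPM in ACJ fish, 16.5 ± 3.82 in ICJ fish, 17.7 ± 2.44 in SBM fish and 15.0 ± 0.929 in FM fish, again with overlap. id2 stayed between 61.3 and 91.7 CPM over all fish, and batf3, a dendritic cell factor, between 1.17 and 6.03 CPM at 7 to 46 counts. lef1, a factor of early T cells, had 2.38, 4.21, 4.59 and 4.90 CPM in ACJ fish, 2.06, 4.14, 3.40 and 3.26 in ICJ fish, 2.98, 3.74, 3.57 and 3.07 in SBM fish and 1.79, 2.15, 4.75 and 1.83 in FM fish, at 10 to 35 counts. Of 5 other T cell genes tested, 1 had a higher and 4 had lower means on soybean meal. Among the lower ones 1, lck, had an unadjusted p below 0.05 in the mean over FM, and 0 were called. lck had 15.2 ± 1.30 CPM in ACJ fish, 14.8 ± 0.624 in ICJ fish, 18.0 ± 2.74 in SBM fish and 19.3 ± 5.31 in FM fish. Its log2 fold change in the mean over FM was -0.29 (SE 0.13, adjusted p = 0.266). cd3e, a chain of the T cell receptor complex, had 93.0 ± 5.59 CPM in ACJ fish, 94.98 ± 7.68 in ICJ fish, 99.5 ± 8.46 in SBM fish and 96.3 ± 8.73 in FM fish.

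Of the 6 genes of the spleen anlage and stroma, 5 had higher means on soybean meal, and 3 of them had an unadjusted p below 0.05. nkx23 on chromosome 12 (9373953 to 9377023), a copy of the homeobox gene without which mice form no normal spleen, had 61.6, 62.7, 62.0 and 48.8 CPM in ACJ fish, 55.3, 50.8, 60.3 and 52.2 in ICJ fish, 55.6, 55.9, 50.4 and 56.5 in SBM fish and 42.1, 46.9, 48.2 and 49.7 in FM fish. All ICJ and all SBM fish lay above all FM fish, and 1 ACJ fish lay within the FM range. The log2 fold change was 0.33 (SE 0.09, adjusted p = 0.106) for ACJ over FM, 0.23 (SE 0.09, adjusted p = 0.435) for ICJ over FM and 0.22 (SE 0.09, adjusted p = 0.239) for SBM over FM. In the mean over FM it was 0.26 (SE 0.07, adjusted p = 0.0895). Without ACJ replicate 4, that low ACJ fish, the gene was called in ACJ over FM, with an adjusted p of 0.027. With 1 fish left out, all genes called in that comparison ranged between 2 and 550, against 68 with all fish.

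The other copy, nkx2-3 on chromosome 1 (91244470 to 91249167), had 21.1, 20.9, 20.7 and 19.6 CPM in ACJ fish, 20.4, 22.8, 27.7 and 22.6 in ICJ fish, 19.3, 23.7, 23.2 and 21.4 in SBM fish and 18.0, 18.3, 20.1 and 19.0 in FM fish, with 0.22 (SE 0.09, adjusted p = 0.208) for the mean over FM. Both copies were higher in mean on each soybean meal diet. tcf21_1 on chromosome 15 (12676109 to 12678790), a copy of a mesenchymal factor of the mouse spleen anlage, had 175, 166, 150.0 and 159 CPM in ACJ fish, 141, 166, 146 and 141 in ICJ fish, 153, 169.6, 141 and 161 in SBM fish and 169, 106, 95.7 and 122 in FM fish. The log2 fold change of the mean over FM was 0.34 (SE 0.11, adjusted p = 0.126), and 1 FM fish, replicate 1, reached the level of the other diets. Without that fish the log2 fold change was 0.54 and the gene was called, with an adjusted p of 0.00461. It was then also called in SBM over FM (adjusted p = 0.0097) and ACJ over FM (adjusted p = 0.00745). These calls follow the removal of the FM fish that went against the difference. With 1 fish left out, all genes called in the mean over FM ranged between 8 and 1005, against 287 with all fish. Its copy tcf21 on chromosome 6 had 52.9 ± 2.71 CPM in ACJ fish, 45.8 ± 8.34 in ICJ fish, 43.5 ± 5.61 in SBM fish and 45.1 ± 5.27 in FM fish, with 0.28 (SE 0.12, adjusted p = 0.712) for ACJ over SBM. nkx2-6 had 3.18, 2.40, 3.67 and 5.11 CPM in ACJ fish, 5.15, 3.81, 6.28 and 5.39 in ICJ fish, 2.13, 2.49, 2.75 and 4.34 in SBM fish and 4.46, 2.29, 1.23 and 3.67 in FM fish, at 7 to 48 counts, with 0.83 (SE 0.33, adjusted p = 0.439) for ICJ over FM. gata4 was at 0 in 1 ICJ and 2 SBM fish and reached 5.32 CPM in an ACJ fish, so its fold changes are not given. Glucagon transcripts, a pancreas marker, were at 112 CPM in that ACJ fish and at 149 CPM in the ICJ fish highest in gata4. They were at 0 in the ICJ fish without gata4. The SBM fish highest in glucagon, at 44.2 CPM, had 0.687 CPM of gata4. The part of pancreas tissue in the levels of gata4 was not tested.

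Of the 13 zbtb genes, zbtb18 included, 10 had lower and 3 higher means on soybean meal. zbtb24, whose loss causes an immunodeficiency in human, had 3.34, 3.46, 3.93 and 2.77 CPM in ACJ fish, 3.38, 3.97, 3.40 and 3.97 in ICJ fish, 3.41, 3.58, 4.81 and 3.70 in SBM fish and 4.64, 5.16, 4.40 and 4.33 in FM fish, at 13 to 36 counts, with -0.35 (SE 0.15, adjusted p = 0.259) for the mean over FM. zbtb43 had 0.953, 0.451, 0.524 and 1.28 CPM in ACJ fish and 1.43, 1.58, 1.76 and 1.83 in FM fish, at 3 to 12 counts in any fish, and -1.08 (SE 0.43, adjusted p = 0.243) for ACJ over FM. zbtb20, a repressor of fetal liver genes in mouse, had 34.7 ± 5.84 CPM in ACJ fish and 42.0 ± 6.78 in FM fish. Of the remainder, tcf12, an E protein, had 37.9 ± 1.81 CPM in ACJ fish, 37.4 ± 2.70 in ICJ fish, 40.1 ± 0.843 in SBM fish and 44.4 ± 6.34 in FM fish, with -0.21 (SE 0.08, adjusted p = 0.171) for the mean over FM. mybl2, a factor of dividing cells, had 9.05, 7.96, 7.21 and 8.09 in ACJ fish, 10.3, 10.6, 10.7 and 11.8 in ICJ fish, 6.54, 10.9, 8.38 and 10.2 in SBM fish and 6.61, 9.31, 7.04 and 7.84 in FM fish. All ICJ fish lay above all FM and all ACJ fish, with 0.49 (SE 0.16, adjusted p = 0.344) for ICJ over FM and -0.43 (SE 0.16, adjusted p = 0.871) for ACJ over ICJ.

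The 3 comparisons among the soybean meal diets set diets with and without yeast, and the 2 forms of yeast, against each other. The yeast diets also held less wheat gluten and potato starch than SBM. In ACJ against ICJ edgeR called 0 members and 0% of all genes, DESeq2 called 0 members and 0.0173% of all genes, and 2 members had an unadjusted p below 0.05 (mybl2 and prdm1), or 3.39% where all genes gave 5.67%. In ACJ against SBM edgeR called 0 members and 0% of all genes, DESeq2 called 0 members and 0.0173% of all genes, and 2 members had such a p (tcf21 and zbtb41), or 3.39% where all genes gave 6.90%. In ICJ against SBM edgeR called 0 members and 0% of all genes, DESeq2 called 0 members and 0.0207% of all genes, and 3 members had such a p (klf12, nkx2-6 and zbtb18), or 5.08% where all genes gave 4.99%. The share of members with such a p was thus near or below that of all genes in each.

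In ACJ against SBM, 4 members had all ACJ fish above all SBM fish (klf4, gata1, zbtb17 and foxp1), where 2.67% of all genes did so, and 2 had them below (cebpd and tcf3), where 2.15% did so. gata1 had 0.45 on the log2 scale in ACJ over SBM (SE 0.29, adjusted p = 0.784) and 0.46 in ICJ over SBM (SE 0.29, adjusted p = 0.967). klf4 had 0.66 (SE 0.42, adjusted p = 0.782) in ACJ over SBM. The levels of both lay between those of SBM and FM fish in mean, with 51.4 CPM of gata1 in ACJ fish, 51.7 in ICJ fish, 37.6 in SBM fish and 83.0 in FM fish. The hemoglobin sum, which rests largely on genes found through the study's list, lay in the same order. It was at 34344 CPM in the lowest ACJ fish and 25760 CPM in the highest SBM fish. zbtb41 had 18.6 ± 1.08 CPM in ACJ fish and 14.8 ± 2.63 in SBM fish, with 0.33 (SE 0.14, adjusted p = 0.712), and klf12 had 24.998 ± 5.06 CPM in ICJ fish and 18.6 ± 1.77 in SBM fish, with 0.43 (SE 0.16, adjusted p = 0.967) for ICJ over SBM.

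Members of the same families without a symbol in the count tables were found through RefSeq's current symbols for their LOC identifiers. Of 45 such genes 36 were tested, and in the mean over FM 12 had higher and 24 lower means, with a median log2 fold change of -0.08. At an unadjusted p below 0.05 there were 2 higher and 9 lower, and 1 was called. This was LOC106577630 on chromosome 18 (53258828 to 53270560), bcl6b, a relative of the bcl6 repressor, which rose on soybean meal, with 81.2 ± 6.41 CPM in ACJ fish, 72.6 ± 10.5 in ICJ fish, 80.1 ± 5.42 in SBM fish and 56.5 ± 9.34 in FM fish. In the mean over FM it had 0.46 (SE 0.09, adjusted p = 0.0301) on the log2 scale. The call was lost without FM replicate 2, 3 or 4 or ACJ replicate 1 or 2, with adjusted p between 0.0516 and 0.151. LOC106610662, id3, an inhibitor of E proteins, had -0.16 (SE 0.07, adjusted p = 0.273). Tissue carried along with the spleen was also checked: glucagon transcripts, a pancreas marker, were between 0 and 149 CPM in a fish, and 4 liver markers summed to between 0 and 12.4 CPM. The 7 muscle markers summed to between 43.0 and 109 CPM in ACJ fish, 15.9 and 68.0 in ICJ fish, 28.6 and 50.6 in SBM fish and 61.9 and 91.4 in FM fish, so that SBM fish lay below all FM fish. Of these, ckm2, a muscle creatine kinase, had -0.63 (SE 0.27, adjusted p = 0.272) in the mean over FM. At 0 in all fish were 1 liver and 1 muscle gene. The part of such tissue in the values above was not tested.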

How the data were processed

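Spleen mRNA was sequenced as stranded libraries from 16 fish. The authors trimmed the reads, aligned them to ICSASG_v2 with HISAT2 2.1.0 and counted fragments per gene on the reverse strand with featureCounts (version 1.4.6-p1 in the submitters' processing notes, 1.5.1 in the headers of the tables). The deposited values are these counts as whole numbers, not normalized, without fragments that match several places or genes. From the counts, 1 row without a name (0.205% to 0.475% of a fish's counts) was left out.

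Diet and replicate number came from the labels. The table headers also carry library numbers, which for most fish are not the replicate number of the label, and these were left aside. Counts were filtered with filterByExpr, scaled by TMM and fitted for all 16 fish with a mean per diet in edgeR 4.0.16 (R 4.3.3, glmQLFit with robust estimation, glmQLFTest, Benjamini-Hochberg over 28929 genes, called at an adjusted p below 0.05). The common biological coefficient of variation was 0.199. Log2 fold changes are the first diet over the second. The scripts were tested on simulated data.

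The members, role groups, gene lists and comparisons were chosen with earlier results of these data known. Role groups rest on gene names; cebpz, a cebp gene by symbol, was placed in the remainder. Lists were matched by symbol, in the tables or in RefSeq's table for Ssal_v3.1, which matched 39334 features. Hemoglobin genes were also taken by name from the study's list of differentially expressed genes, drawn from these fish. Chromosome numbers were assigned to 29 sequences through that table, with an agreement of at least 86.4% per sequence.

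Members were named if they were called, were among the 3 with the lowest p in each direction of a comparison, belonged to a core list of lineage factors, were among the 5 highest or 5 lowest in level or the 5 most variable within diets, or had no overlap between FM and the other 12 fish. The members zbtb8a and zbtb11 also met this rule, through their p, and are not described above. Members named outside this rule, such as bcl11a, zbtb24, zbtb17, foxp1, cebpd_1, tcf4, maffl and nfe2l1, and gfi1b, ank1b, ckm2, lck and hba of the gene lists, were chosen after their values were seen. The alternatives were DESeq2 1.42.0, a likelihood ratio test in edgeR (minimum of 1 CPM in 4 fish), RLE scaling, no filter, a replicate block, only the fish compared, removal of 17 hemoglobin genes, and each fish left out in turn. Factors of the same families outside the 59 genes are not analysed here except where named. Sequences were not used here.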

Additional observations from a re-analysis of the deposited data

Results flagged for a closer look

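In 168 groups of 4 fish (42 genes in 4 diets), 7 groups (4.17%) held 1 fish far from the other 3 by Dixon's test, where chance alone flags about 1 group in 20. klf2 in SBM replicate 3 was at 82.8 CPM, with the other SBM fish between 59.8 and 62.1. lmo2 in SBM replicate 1 was at 70.8 CPM, with the others between 60.3 and 62.0. nkx23 was low in ACJ replicate 4 at 48.8 CPM, where the others had between 61.6 and 62.7, and in SBM replicate 3 at 50.4 CPM, where the others had between 55.6 and 56.5. lef1 in FM replicate 3 was at 4.75 CPM, with the others between 1.79 and 2.15. mybpc1, a muscle gene, was at 4.71 CPM in ICJ replicate 1, where the others had between 1.32 and 1.70, and at 0.352 CPM in FM replicate 3, where the others had between 2.15 and 2.499.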

How the results depend on the processing

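The single call among the 59 genes, klf2_1 in the mean of SBM, ICJ and ACJ over FM, was present in 19 of the 22 alternatives and absent in the 3 without FM replicate 2, 3 or 4. The number of members called in that comparison, 1, became 3 with the likelihood ratio test, 2 with the replicate block and 7 with DESeq2, and was between 0 and 8 with 1 fish left out, 8 being the number without FM replicate 1 (klf2_1, gata1, lmo2, zbtb18, bcl11a, tcf12, cebpa and tcf21_1). In SBM against FM the number, 0, became 2 with the likelihood ratio test, 1 with the replicate block (zbtb18) and 4 with DESeq2, and was between 0 and 4 with 1 fish left out. In ACJ against FM, 0 became 1 without a filter, 1 with the likelihood ratio test and 3 with DESeq2, and was between 0 and 3 with 1 fish left out. In ICJ against FM, 0 became 1 with DESeq2. The 3 comparisons among soybean meal diets gave 0 under every alternative. The cause of these changes was not tested. Over all genes, DESeq2 called 719 in SBM against FM (125 in the main analysis), 81 in ICJ against FM (3), 463 in ACJ against FM (68) and 868 in the mean over FM (287). With 1 fish left out, the number over all genes was between 8 and 1005 in the mean over FM. It was between 5 and 670 in SBM against FM, 2 and 550 in ACJ against FM and 0 and 37 in ICJ against FM. Calls thus changed widely over all genes, and the member counts above are no result about the members alone. Of 2417 log2 fold changes of 136 gene and comparison pairs under alternatives, 2 changed sign, both far from the threshold: with 1 fish left out, myb in the mean over FM lay between -0.28 and 0.17 (0.17 without FM replicate 3) and bach1 between -0.36 and 0.25 (0.25 without FM replicate 2). A further 59 passed the threshold only under the alternative, 22 of them with DESeq2 and 19 without FM replicate 1, and 8 lost it.

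Same-numbered fish are different animals, and their deviations from the diet means correlated between -0.13 and 0.06 on average, so the replicate block pairs a number only. It changed no other call of a member than zbtb18, with adjusted p of 0.0487 in SBM against FM and 0.0422 in the mean over FM. With 4 fish per diet and 5013312 to 9075622 counts per fish, differences in genes with few counts, such as myb, bach1, lef1, zbtb43 and gata4, were not detectable unless large.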
